A study of Mus musculus with 90 samples.

Results

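The oviduct and ciliated epithelium genes described here were Ovgp1, Foxj1, Ccdc153, Tmem212 and Dynlrb2, 5 of the 20414 genes in the deposited table. They were found by their Entrez Gene identifiers, which are 12659, 15223, 270150, 208613 and 75465. They were chosen on measured values of these libraries, namely their levels in estrus replicate 3 of ovary and of uterus and in the brain, so their levels there, and their differences between those tissues, are given as a description without a test. The phases were compared within hypothalamus and within cerebrum, which the choice did not use. The study compared female mice in estrus with female mice in diestrus over 15 tissues, with 3 mice per phase and 90 libraries in all. The groups used here were ovary, uterus (labelled womb), hypothalamus, cerebrum, aorta and vein in each phase, with 3 libraries per group, and the other tissues served as a reference. The labels give all mice as C57BL/6 females of 10 weeks, while the methods of the study state another age. The phase was read from vaginal smears stained with methylene blue, and the study also measured serum estrogen and progesterone as an aid.

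Motile cilia are driven by dynein motors that stand on microtubule doublets and are regulated by radial spokes, the central pair and the nexin-dynein regulatory complex. In the oviduct, ciliated cells move the oocyte and the embryo, and neighbouring secretory cells release oviductin, the glycoprotein encoded by Ovgp1. The ependymal cells that line the brain ventricles carry motile cilia as well. Foxj1 encodes the transcription factor that switches on the genes of motile cilia in all of these epithelia. Ccdc153 encodes a coiled-coil protein and Tmem212 a membrane protein, and transcripts of both are used as markers of ependymal and other ciliated cells. Dynlrb2 encodes a dynein light chain of the roadblock family and is a paralog of the widely expressed Dynlrb1.

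The promoters of 4 of the 5 genes could be read from the RefSeq table of GRCm38.p6 and are shown because the genes varied together over the libraries. Each line gives the 250 bases before the annotated start on the strand of the gene. Capitals mark the half-site of the RFX factors, partners of Foxj1 in ciliated cells, searched as GTTNCC on both strands, and its paired form, which is GTTNCC followed after 3 to 6 bases by AAC. In Ovgp1, capitals mark GGTCA followed after 3 bases by TGAC, searched on both strands, which leaves 1 base of the palindrome known for estrogen receptors, GGTCA followed after 3 bases by TGACC, unmatched.
Dynlrb2, chr8:116504765-116505014, plus strand: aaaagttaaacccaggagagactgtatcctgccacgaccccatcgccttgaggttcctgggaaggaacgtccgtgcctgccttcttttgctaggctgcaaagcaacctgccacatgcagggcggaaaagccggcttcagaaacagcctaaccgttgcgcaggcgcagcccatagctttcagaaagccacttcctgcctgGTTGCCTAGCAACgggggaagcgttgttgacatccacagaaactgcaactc
Ccdc153, chr9:44240427-44240676, plus strand: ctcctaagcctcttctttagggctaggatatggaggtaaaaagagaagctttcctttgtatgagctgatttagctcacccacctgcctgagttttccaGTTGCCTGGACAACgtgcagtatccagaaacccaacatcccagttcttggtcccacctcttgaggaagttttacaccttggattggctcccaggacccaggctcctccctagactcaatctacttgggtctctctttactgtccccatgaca
Tmem212, chr3:27896369-27896618, minus strand: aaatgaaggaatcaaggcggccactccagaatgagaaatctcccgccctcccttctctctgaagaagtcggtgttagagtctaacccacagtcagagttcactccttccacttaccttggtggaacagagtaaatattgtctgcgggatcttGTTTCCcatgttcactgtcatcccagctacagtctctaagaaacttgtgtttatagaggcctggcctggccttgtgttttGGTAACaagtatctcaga
Ovgp1, chr3:105973552-105973801, plus strand: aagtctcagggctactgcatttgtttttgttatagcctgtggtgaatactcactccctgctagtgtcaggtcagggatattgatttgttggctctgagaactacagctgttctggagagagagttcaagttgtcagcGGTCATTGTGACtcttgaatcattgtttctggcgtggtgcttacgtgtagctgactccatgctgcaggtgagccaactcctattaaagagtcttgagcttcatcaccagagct

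Dynlrb2 carried the paired form from base -51 to -39 and Ccdc153 from base -152 to -139, counted from the start. Tmem212 carried 2 half-sites and no paired form, and Ovgp1 carried neither. The half-site stood in 39.4% of the 32851 promoters of this length, and in 69 of the 104 promoters of 88 listed motile cilia genes (66.3%). The paired form stood in 3.17% of all promoters and in 19 of those 104 (18.3%). The form seen in Ovgp1 stood in 57 of all promoters (0.174%), and in none of those 104, and the full palindrome in 0.0639%. These motifs overlap one another and were chosen after the sequences had been read, and a match is a description of the letters, not a site of binding. The promoter of Foxj1 was not used here.

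Values are FPKM, which divide the fragments of a gene by its length in kilobases and by the depth of the library. The reads behind them, approximated from the smallest steps between the values of short genes, came to about 9140000 to 18060000 in 89 libraries, so that 1 read of Dynlrb2 was worth 0.119 to 0.235 FPKM. The study states a larger number of reads per sample, so a read may have been worth less. The library of brown adipose tissue (BAT) estrus replicate 3 was far shallower and listed 12048 genes at 0, against at most 4820 in the others. In uterus estrus replicate 3, 11 of 12 listed squamous epithelium genes were the highest of the tissue, against 30% of all genes above 0 in uterus. Their summed FPKM was 4606 against 5.46 to 165 in the other 5 libraries. In ovary estrus replicate 3, all 14 simple epithelium genes were the highest of the tissue (summed FPKM of 630.4 against 42.3 to 69.7) and 0 of 10 oocyte genes were, with a summed FPKM of 138.8 against 249.3 to 316.6. The library was the highest for 29.4% of all genes above 0 in ovary. In aorta diestrus replicate 3, 13 of 14 simple epithelium genes were the highest of the tissue, against 23.4% of all genes above 0 in aorta. Their summed FPKM was 303.2 against 9.95 to 20.9.

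Ovgp1 was far higher in estrus replicate 3 than in the other libraries of both reproductive tissues. In ovary, it measured 12.4, 39.7 and 1563 FPKM in the 3 estrus libraries and 3.53, 2.35 and 4.67 FPKM in the 3 diestrus libraries. In uterus, it measured 56.1, 22.3 and 2554 FPKM in estrus and 25.6, 126.1 and 23.7 FPKM in diestrus. The phases did not overlap in ovary and overlapped in uterus, where diestrus replicate 2 was the second highest library. Against the highest of the other 5 libraries, estrus replicate 3 was 39.4-fold higher in ovary and 20.3-fold higher in uterus.

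The ciliary genes were led by the same 2 libraries. Foxj1 measured 1.81, 2.31 and 60.4 FPKM in ovary in estrus and 0.10, 0.29 and 0.15 FPKM in diestrus. In uterus, Foxj1 measured 1.80, 4.62 and 155.4 FPKM in estrus and 1.97, 0.87 and 0.39 FPKM in diestrus. Outside estrus replicate 3, uterus thus held Foxj1 at a low level in every library, whereas the other ciliary genes were at or near 0 there.

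Ccdc153 measured 0, 0.15 and 273.1 FPKM in uterus in estrus and 0.28, 0.16 and 0.18 FPKM in diestrus. Dynlrb2 measured 0.25, 0 and 260.3 FPKM in estrus and 0, 0 and 0.12 FPKM in diestrus. Tmem212 measured 0.56, 0.43 and 165.8 FPKM in estrus and 0.28, 0 and 0 FPKM in diestrus. In all 3 genes, 1 of the 6 uterus libraries held nearly the whole signal, and the remaining values were at most 0.56 FPKM.

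In ovary, the signal outside estrus replicate 3 was graded. Ccdc153 measured 1.51, 6.68 and 72.2 FPKM in estrus and 0.15, 0.61 and 0.24 FPKM in diestrus. Tmem212 measured 2.10, 5.57 and 42.1 FPKM in estrus and 0.43, 0.27 and 0.27 FPKM in diestrus. Dynlrb2 measured 2.69, 3.45 and 65.4 FPKM in estrus and 0, 0.26 and 0.39 FPKM in diestrus. Each of the 5 genes was higher in every estrus library of ovary than in every diestrus library, also with estrus replicate 3 left out, as were 7.68% of all genes above 0 in ovary, and 19.6% with that library left out. In a bulk library, a change in the number of cells of a type and a change of RNA per cell cannot be told apart.

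**Figure D1:**
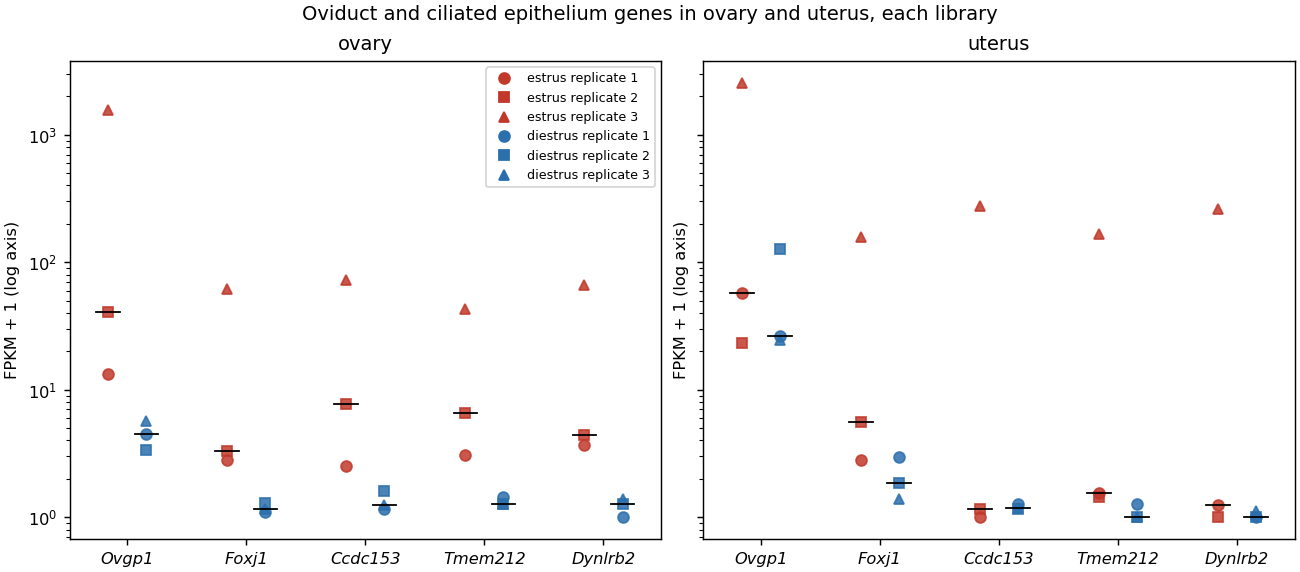
FPKM + 1 on a log axis of the 5 genes in each library of ovary (left) and uterus (right), with a symbol per replicate, a colour per phase and a bar at the median of each group. Estrus replicate 3 stood highest for all 5 genes in both tissues, at 2554 FPKM for Ovgp1 in uterus, and in ovary the remaining estrus libraries also lay above the diestrus libraries.

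The 2 libraries that led differed in composition. Uterus estrus replicate 3 was above ovary estrus replicate 3 by 1.63-fold for Ovgp1, 2.57-fold for Foxj1, 3.78-fold for Ccdc153, 3.94-fold for Tmem212 and 3.98-fold for Dynlrb2. Ovgp1 was 25.9 times Foxj1 in ovary and 16.4 times Foxj1 in uterus, as ratios of FPKM. These ratios come from 1 library each and have no replicate check.

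The other genes of motile cilia were taken from a list of 105 genes in 8 roles, of which 104 were in the table and none is among the 5 genes above. Uterus estrus replicate 3 was the highest of the 6 uterus libraries for 100 of the 104, while it was the highest for 30% of all genes above 0 in uterus. Ovary estrus replicate 3 was the highest of its tissue for 100 of the 104, against 29.4% of all genes above 0 in ovary. The median log2 ratio of (FPKM + 1) to the median of the other 5 libraries was 3.28 in uterus and 2.02 in ovary over the list, and 0 over all genes in both. The exceptions in uterus were Dnaaf2, Rsph3a, Nme7 and Myb, and those in ovary were Dnah2, Spag1, Dnajb13 and Ccno.

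By role, the medians in uterus ran from 1.17 for the 10 multiciliation regulators to 3.86 for the 9 genes of the nexin-dynein regulatory complex. In ovary, they ran from 0.86 for the regulators to 2.44 for the 18 other ciliated cell genes, followed by 2.36 for the 9 radial spoke genes. All 21 genes of the dynein arms and all 11 of the central pair were highest in uterus estrus replicate 3, as were 20 and 11 of them in ovary estrus replicate 3. The most abundant genes of the roles over the 90 libraries were Dnal1, Dnaaf5, Rsph3a, Spef1, Gas8, Cfap126, Myb and Tppp3, and several of them were also present in tissues with little Foxj1.

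Cfap126 encodes a protein of the ciliary doublets and measured 192.3 FPKM in uterus estrus replicate 3 against at most 5.2 FPKM in the other 5 libraries. In ovary estrus replicate 3 it measured 59.2 FPKM against at most 12.6 FPKM. Gas8, a subunit of the nexin-dynein regulatory complex, moved less and measured 25.4 FPKM against at most 17.3 FPKM in uterus, and 19.3 FPKM against at most 17.7 FPKM in ovary. Dnal1, a dynein light chain, measured 6.10 FPKM against at most 5.63 FPKM in uterus. Spef1, a protein of the central pair, measured 52.1 FPKM against at most 26.6 FPKM in uterus. Dnaaf5, a dynein assembly factor, measured 15.9 FPKM against at most 14.1 FPKM in uterus.

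**Figure D2:**
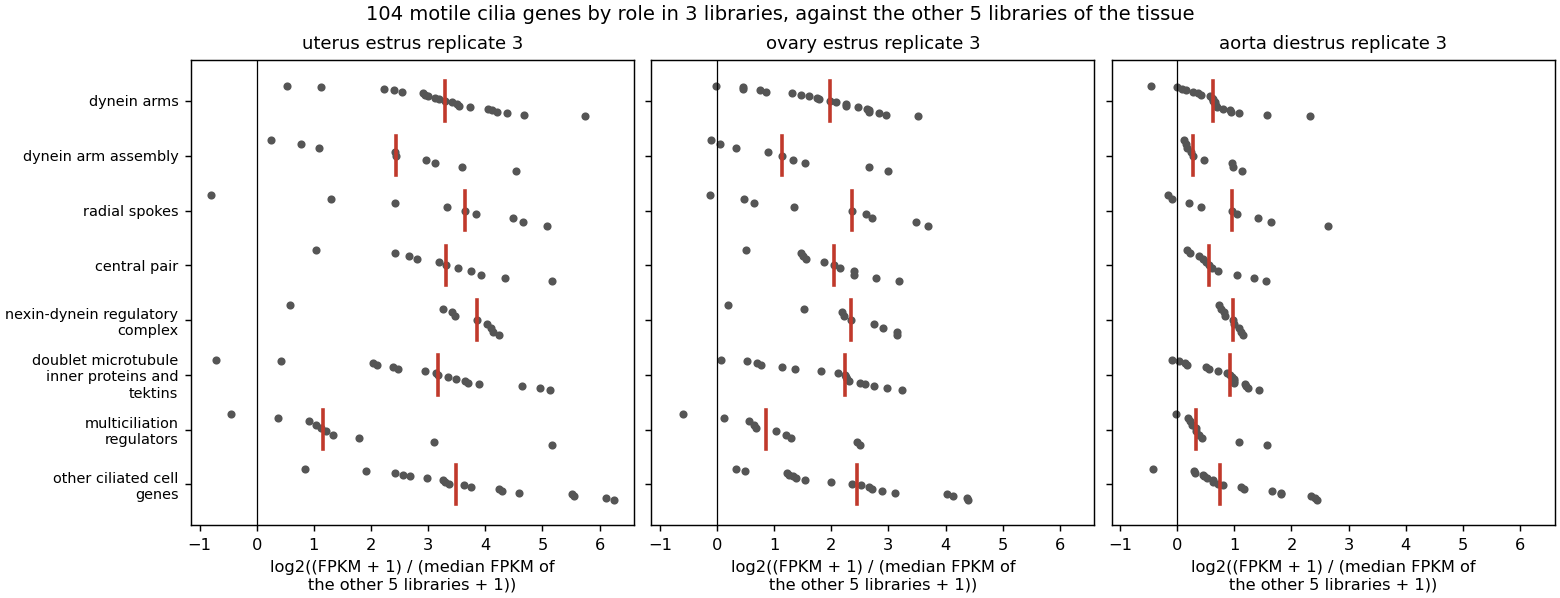
Log2 ratio of (FPKM + 1) in 1 library to the median of the other 5 libraries of its tissue, for the 104 listed motile cilia genes (points) by role, with a red bar at the median of each role. The list median was 3.28 in uterus estrus replicate 3, 2.02 in ovary estrus replicate 3 and 0.68 in aorta diestrus replicate 3.

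Across the phases, none of the 104 genes was called in ovary or in uterus by limma, with a call set at a log2 difference of at least 1 and a Benjamini-Hochberg adjusted p of at most 0.05. Over all genes, 0 of 13587 were called in ovary (0%) and 0 of 13705 in uterus (0%), and 810 and 512 of these had an unadjusted p under 0.05. Of the listed genes that passed the filter on low values, 13 of 78 in ovary and 0 of 95 in uterus had an unadjusted p under 0.05, and all 13 were higher in estrus. Without estrus replicate 3, only 42 listed genes passed the filter in ovary and 36 in uterus. Many thus entered through the library where they are high, and the shared direction of the 13 is only a description. One fit of all 90 libraries, which takes the spread from every tissue, called 52 listed genes in uterus, against 6.65% of all 13705 genes tested, and 1 in ovary, against 0.339% of all 13587. With estrus replicate 3 of the tissue left out of that fit, it called 1 of 36 listed genes tested in uterus, which was lower in estrus, against 2.99% of all genes, and 0 of 42 in ovary, against 0.294%, where 2 of the 42 had an unadjusted p under 0.05. The 52 calls in uterus thus rested on 1 library. With 3 mice against 3, an exact permutation test of a gene cannot go below 0.1.

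In ovary, 56 of the 104 genes were higher in every estrus library than in every diestrus library, against 7.68% of all genes above 0 in ovary. With estrus replicate 3 left out, 56 of the 104 were so, against 19.6% of all genes. In uterus, 5 of the 104 were so, against 3.38% of all genes, and 6 of the 104 with estrus replicate 3 left out, against 4.95%. The graded pattern of the 5 genes over the ovary libraries was thus also found in the list, and the list in uterus stood near the background.

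Lists of epithelial and other cell types were read in the same libraries. In ovary estrus replicate 3, the epithelial genes Krt19 and Wfdc2 measured 129 and 82.6 FPKM, against at most 12.8 and 2.94 FPKM in the other 5 libraries. The uterine epithelium list summed to 493.9 FPKM against 16.9 to 24.5 FPKM, with 12 of 13 genes highest in that library, and Lcn2 measured 116.3 FPKM against at most 7.62 FPKM. The oocyte genes Gdf9 and Zp3 measured 28.5 and 21.7 FPKM, against at least 51.9 and 45.3 FPKM. All 9 genes of uterine stroma and muscle and all 8 of mesothelium and ovarian surface were highest in that library too. It was the highest for 29.4% of all genes above 0 in ovary. Granulosa and luteal cell genes summed to 7896 FPKM against 8150 to 11386 FPKM, and adipocyte genes to 165.2 FPKM against 33.6 to 71.9 FPKM.

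In ovary estrus replicates 1 and 2, the simple epithelium list summed to 51.1 and 69.7 FPKM, against 42.3 to 55.7 FPKM in diestrus, and its median gene measured 1.78 and 3.09 FPKM against 1.45 to 1.72 FPKM. The uterine epithelium list summed to 24.47 and 23.96 FPKM in the same estrus libraries and to 16.9 to 21.8 FPKM in diestrus. In uterus estrus replicate 3, the squamous genes Sprr1a and Krt13 measured 2345 and 1431 FPKM, against at most 161.1 and 34.8 FPKM. Adipocyte genes summed to 229.2 FPKM against 25.3 to 124.3 FPKM, with 6 of 8 highest in that library, and granulosa and luteal cell genes to 49.2 FPKM against 18.9 to 36.2 FPKM. Of the 12 granulosa and luteal cell genes, 5 were highest there, against 30% of all genes above 0 in uterus. Their median log2 ratio was 0.06, while Hsd3b1 measured 15.6 FPKM against at most 2.56 FPKM. The uterine epithelium list, at 8244 FPKM, lay within the 307.1 to 16489 FPKM of the other 5 uterus libraries. The simple epithelium list, at 3006 FPKM, lay within the 1811 to 4657 FPKM of the other 5 uterus libraries, and the list of uterine stroma and muscle was below them, at 488.3 FPKM against 696.2 to 2523 FPKM. None of these lists was made to set oviduct epithelium apart from other epithelia, and the part of these cell types in the values of the 5 genes was not tested.

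Ovary and uterus were compared over their 12 libraries with the phase as a covariate. Of the 104 listed genes, 93 passed the filter, 4 were called higher in ovary and 4 higher in uterus, against 10.4% and 8.66% of all 14035 genes tested. Higher in ovary were Ccno, a regulator of multiciliation that oocytes also express (log2 difference of 3.43 ± 0.21 SE, adjusted p = 1.83e-07), Mlf1 (2.51 ± 0.50, adjusted p = 0.00173), Dnajb13 and Spag1. Higher in uterus were Myb, Capsl, Tppp3 and Rfx2, with log2 differences of -3.39 ± 0.49 for Myb (adjusted p = 0.000185) and -2.68 ± 0.67 for Capsl (adjusted p = 0.00721). Without uterus estrus replicate 3, 9 listed genes were called higher in ovary, so that count changed with 1 library. The share of all genes called in that setting is not given here.

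In the brain, the ciliary genes were present in all 12 libraries, other than Tmem212 in 1 cerebrum library. Ovgp1 was present in all 12, at 5.32 FPKM or less. Foxj1 measured 9.48 to 12.3 FPKM in hypothalamus, with a median of 11.03, and 2.01 to 4.19 FPKM in cerebrum, with a median of 3.38. Ccdc153 measured 8.63 to 13.0 FPKM in hypothalamus (median 10.5) and 0.55 to 3.03 FPKM in cerebrum (median 1.45). Dynlrb2 measured 5.91 to 10.2 FPKM (median 8.49) and 0.64 to 3.57 FPKM (median 1.37). The ranges of these 3 genes did not overlap between the regions, and hypothalamus lay wholly above cerebrum for 27.8% of all genes above 0 in either.

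Tmem212 measured 2.12 to 7.20 FPKM in hypothalamus (median 5.75) and 0 to 1.74 FPKM in cerebrum (median 0.57). Ovgp1 measured 4.70 to 5.32 FPKM in hypothalamus (median 5.08) and 2.19 to 3.09 FPKM in cerebrum (median 2.32), the narrowest range of the 5 genes in hypothalamus. The ratio of Ovgp1 to Foxj1 was 0.40 to 0.54 in hypothalamus and 0.53 to 1.54 in cerebrum. These lay far below the 25.9 and 16.4 in estrus replicate 3 of ovary and of uterus, which come from 1 library each. Fitted as log2(FPKM + 1), the differences of hypothalamus over cerebrum were 0.82 ± 0.07 (SE) for Ovgp1, 1.53 ± 0.11 for Foxj1, 2.2 ± 0.23 for Ccdc153, 1.87 ± 0.27 for Tmem212 and 1.85 ± 0.16 for Dynlrb2, and no test is given since these levels entered the choice of the genes.

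The listed cilia genes showed the same order of the regions. Of the 104 genes, 68 passed the filter and 30 were called higher in hypothalamus, against 4.73% of all 13280 genes tested. None was called higher in cerebrum, against 4.25% of all genes. By limma, 63 of the 68 had an unadjusted p under 0.05, against 74.1% of all genes tested. Of the 63, 60 were higher in hypothalamus and 3 in cerebrum. All 6 hypothalamus libraries lay above all 6 cerebrum libraries for 77 of the 104 genes, against 27.8% of all genes above 0 in either, and below them for 3, against 10.2%. The median difference was 0.62 over the 104 genes and 0.09 over all genes above 0, on the log2(FPKM + 1) scale.

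Among the genes of each role that passed the filter, 9 of 12 doublet inner proteins and tektins (17 listed), 5 of 7 radial spoke genes (9 listed), 5 of 10 dynein arm genes (21 listed) and 7 of 14 other ciliated cell genes (18 listed) were called higher in hypothalamus. By limma, 0 of 8 dynein assembly genes (9 listed) and 0 of 3 multiciliation regulators (10 listed) were called. Of these, 5 and 3 had an unadjusted p under 0.05, against 74.1% of all genes tested. Fam183b showed the largest difference of the list, at 2.71 ± 0.18 (SE, adjusted p = 5.64e-08), with 17.4 to 31.9 FPKM in hypothalamus and 1.59 to 4.10 FPKM in cerebrum. Tppp3, a tubulin-binding protein also made by other cells, followed at 2.17 ± 0.09 (adjusted p = 1.11e-09) and Cfap126 at 1.99 ± 0.19 (adjusted p = 1.26e-06). The median difference of all genes tested was 0.17 in favour of hypothalamus, against 0.83 for the 68 listed genes tested. With the libraries scaled to a common median, 25 of the 104 genes were called higher, while the calls over all genes changed from 628 higher and 565 lower to 498 higher and 676 lower.

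**Figure D3:**
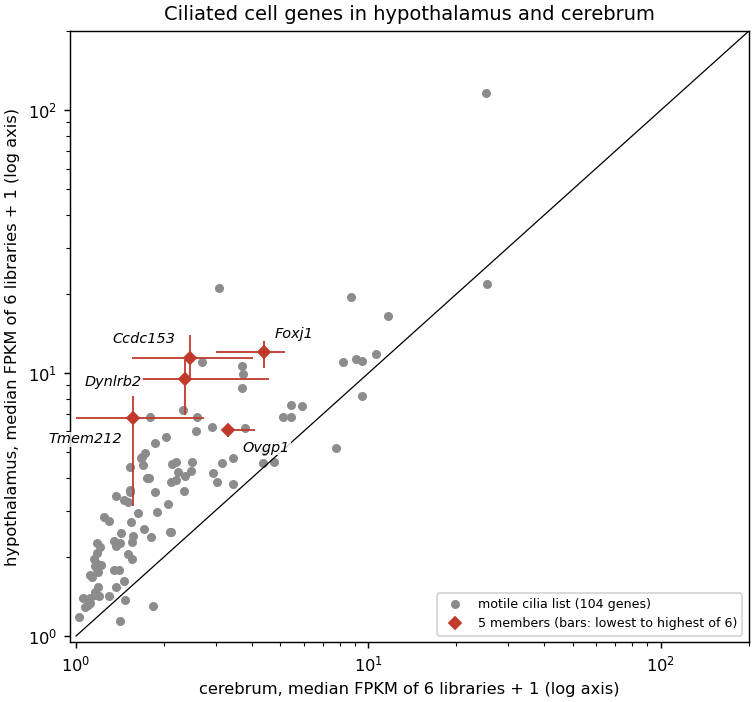
Median FPKM + 1 of 6 libraries in hypothalamus against cerebrum, both on log axes, for the 104 listed motile cilia genes (grey) and the 5 genes (red, bars from the lowest to the highest library), with the line of equality. The 5 genes and most of the list lay above the line, with Foxj1 at 11.03 FPKM in hypothalamus against 3.38 FPKM in cerebrum.

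Choroid plexus is also ciliated, and the sum of its list varied widely among the cerebrum libraries. The 12 choroid plexus genes summed to 95.8 to 880.1 FPKM in cerebrum and to 74.7 to 96.6 FPKM in hypothalamus, with Ttr at 25 to 712.6 FPKM and 1.65 to 13.8 FPKM. Enpp2 measured 63.2 to 134.8 FPKM in cerebrum and 54.5 to 67.1 FPKM in hypothalamus, where it made up much of the sum. The cerebrum library with the highest sum, estrus replicate 3, also had the highest Foxj1 (4.19 FPKM), Ccdc153 (3.03 FPKM) and Dynlrb2 (3.57 FPKM), and the library with the lowest sum, diestrus replicate 3, had the lowest Foxj1 (2.01 FPKM) and Dynlrb2 (0.64 FPKM). The lowest Ccdc153 (0.55 FPKM) came from estrus replicate 2, which had the second highest sum (494.8 FPKM), and the highest Tmem212 (1.74 FPKM) from diestrus replicate 2 (364.3 FPKM). The tanycyte list summed to 57.9 to 77.9 FPKM in hypothalamus and to 70.0 to 139.3 FPKM in cerebrum, and the neuron list to 1638 to 1868 FPKM and 2857 to 3457 FPKM. The source of the spread of this list and the part of choroid plexus in the cerebrum values were not tested.

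Between the phases, no gene was called in hypothalamus (0 of 13400, or 0%, with 1771 at an unadjusted p under 0.05) or in cerebrum (0 of 12951, or 0%, with 389). In hypothalamus, where all 5 genes passed the filter, the log2 differences of estrus over diestrus were -0.02 ± 0.07 (SE) for Ovgp1, 0.03 ± 0.09 for Foxj1, 0.03 ± 0.14 for Ccdc153, 0.43 ± 0.31 for Tmem212 and 0.27 ± 0.13 for Dynlrb2, with limma adjusted p from 0.413 to 0.947. The phases overlapped for each of these genes. In cerebrum, Dynlrb2 measured 1.95, 1.43 and 3.57 FPKM in estrus and 1.29, 1.30 and 0.64 FPKM in diestrus, without overlap, as for 4.61% of all genes above 0 in cerebrum, with a difference of 0.64 ± 0.25 (SE, limma unadjusted p = 0.0400, adjusted p = 1.00). The choroid plexus list summed to 243.3, 494.8 and 880.1 FPKM in the same estrus libraries and to 289.9, 364.3 and 95.8 FPKM in the diestrus libraries. Of the listed cilia genes, 3 of 78 tested in hypothalamus and 2 of 47 in cerebrum had an unadjusted p under 0.05.

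Aorta diestrus replicate 3 held the ciliary genes without Ovgp1. Foxj1 measured 10.2 FPKM there against at most 0.32 FPKM in the other 5 aorta libraries. Dynlrb2 measured 15.7 FPKM against at most 0.17 FPKM, Ccdc153 9.42 FPKM against at most 0.59 FPKM and Tmem212 5.83 FPKM against at most 0.12 FPKM. Ovgp1 measured 1.01 FPKM, within the 0.59 to 2.24 FPKM of the others, so that its ratio to Foxj1 was 0.10.

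The library was the highest of its tissue for 82 of the 104 listed cilia genes, against 23.4% of all genes above 0 in aorta. Of 12 airway secretory genes, a list added after the values were seen, 10 were highest in that library, with a summed FPKM of 3506 against 3.06 to 16.4. These included Scgb1a1 at 1047 FPKM, Scgb3a1 at 707 FPKM and Bpifa1 at 695.8 FPKM, and 2 genes of the list were not highest there, Sftpb at 0.65 FPKM and Sftpc at 1.24 FPKM, while Sftpd measured 10.9 FPKM against at most 0.27 FPKM. In uterus estrus replicate 3, 8 of the 12 were the highest of the tissue, with a summed FPKM of 430 against 10.5 to 321.4, and in ovary estrus replicate 3, 5 of the 12 were, with 60.3 against 5.62 to 16.9. These 2 libraries were the highest for 30% of all genes above 0 in uterus and 29.4% in ovary. Cyp2f2 measured 279.1 FPKM in uterus estrus replicate 3 against at most 15.7 FPKM, and 31.8 FPKM in ovary estrus replicate 3 against at most 1.58 FPKM, whereas Scgb1a1 was at most 1.15 FPKM in both tissues. No gene was called between the phases in aorta (0 of 12553, or 0%, with 390 at an unadjusted p under 0.05).

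**Figure D4:**
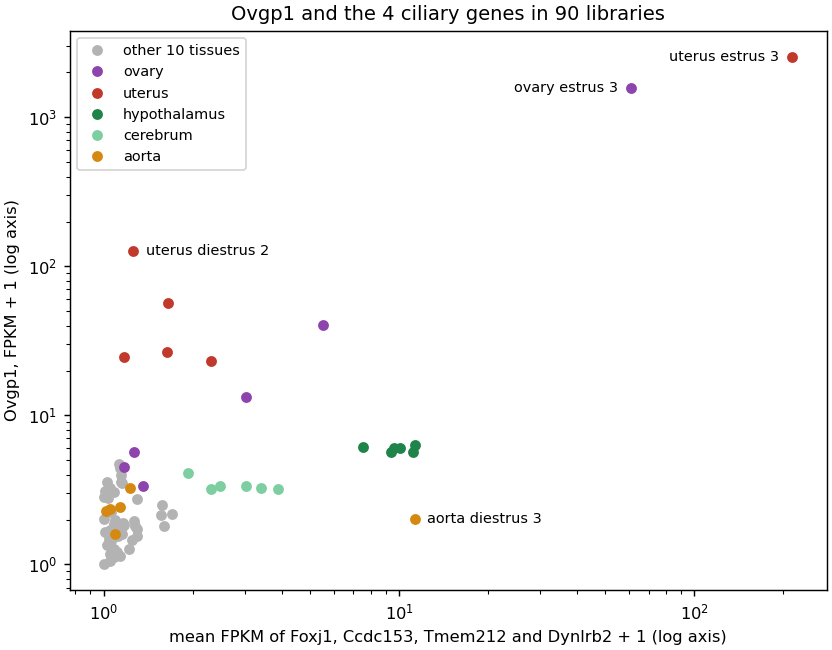
Ovgp1 FPKM + 1 against the mean FPKM of Foxj1, Ccdc153, Tmem212 and Dynlrb2 + 1 in 90 libraries, both on log axes, coloured by tissue. Uterus and ovary estrus replicate 3 were high on both axes, uterus diestrus replicate 2 was high in Ovgp1 only (126.1 FPKM), and hypothalamus and aorta diestrus replicate 3 were raised on the ciliary axis at 5.32 FPKM of Ovgp1 or less.

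Over the 15 tissues, the order of the medians differed between Ovgp1 and the ciliary genes. Ovgp1 was highest in uterus (median 40.8 FPKM), followed by ovary (8.52 FPKM) and hypothalamus (5.08 FPKM), whose ranges overlapped, and then by spleen (2.07 to 3.71 FPKM), cerebrum and skeletal muscle (1.79 to 2.58 FPKM). The range of hypothalamus lay wholly above that of spleen, and those of spleen, cerebrum and skeletal muscle overlapped one after the other. In 5 tissues, all 6 libraries were below 1 FPKM.

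Foxj1 was highest by median in hypothalamus, whose range did not overlap with that of cerebrum, the next tissue, and the following ranges of uterus, vein and ovary overlapped one after the other. Vein held Foxj1 at 0.69 to 1.83 FPKM, at 1.65 FPKM by median, with a median ratio of Dynlrb2 to Foxj1 of 0.26 and of Ccdc153 to Foxj1 of 0.08. In hypothalamus, these ratios were 0.75 and 0.95, so the vein libraries with Foxj1 had proportionally little of the other ciliary genes. All 6 libraries were below 1 FPKM of Foxj1 in 9 tissues.

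Ccdc153, Tmem212 and Dynlrb2 were each highest by median in hypothalamus, and each was below 1 FPKM in all libraries of 10 tissues. Tmem212 was listed at 0 in 59 of the 90 libraries and in every library of 6 tissues. Dynlrb2 was listed at 0 in 44 of the 90 libraries, while Dynlrb1 was at 104.6 to 455.3 FPKM in all of them. The highest Dynlrb2 value outside the brain, ovary, uterus and aorta was found in vein, at 0.84 FPKM. Since the authors split shared reads between paralogs by estimation, a low value of Dynlrb2 is uncertain.

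**Figure D5:**
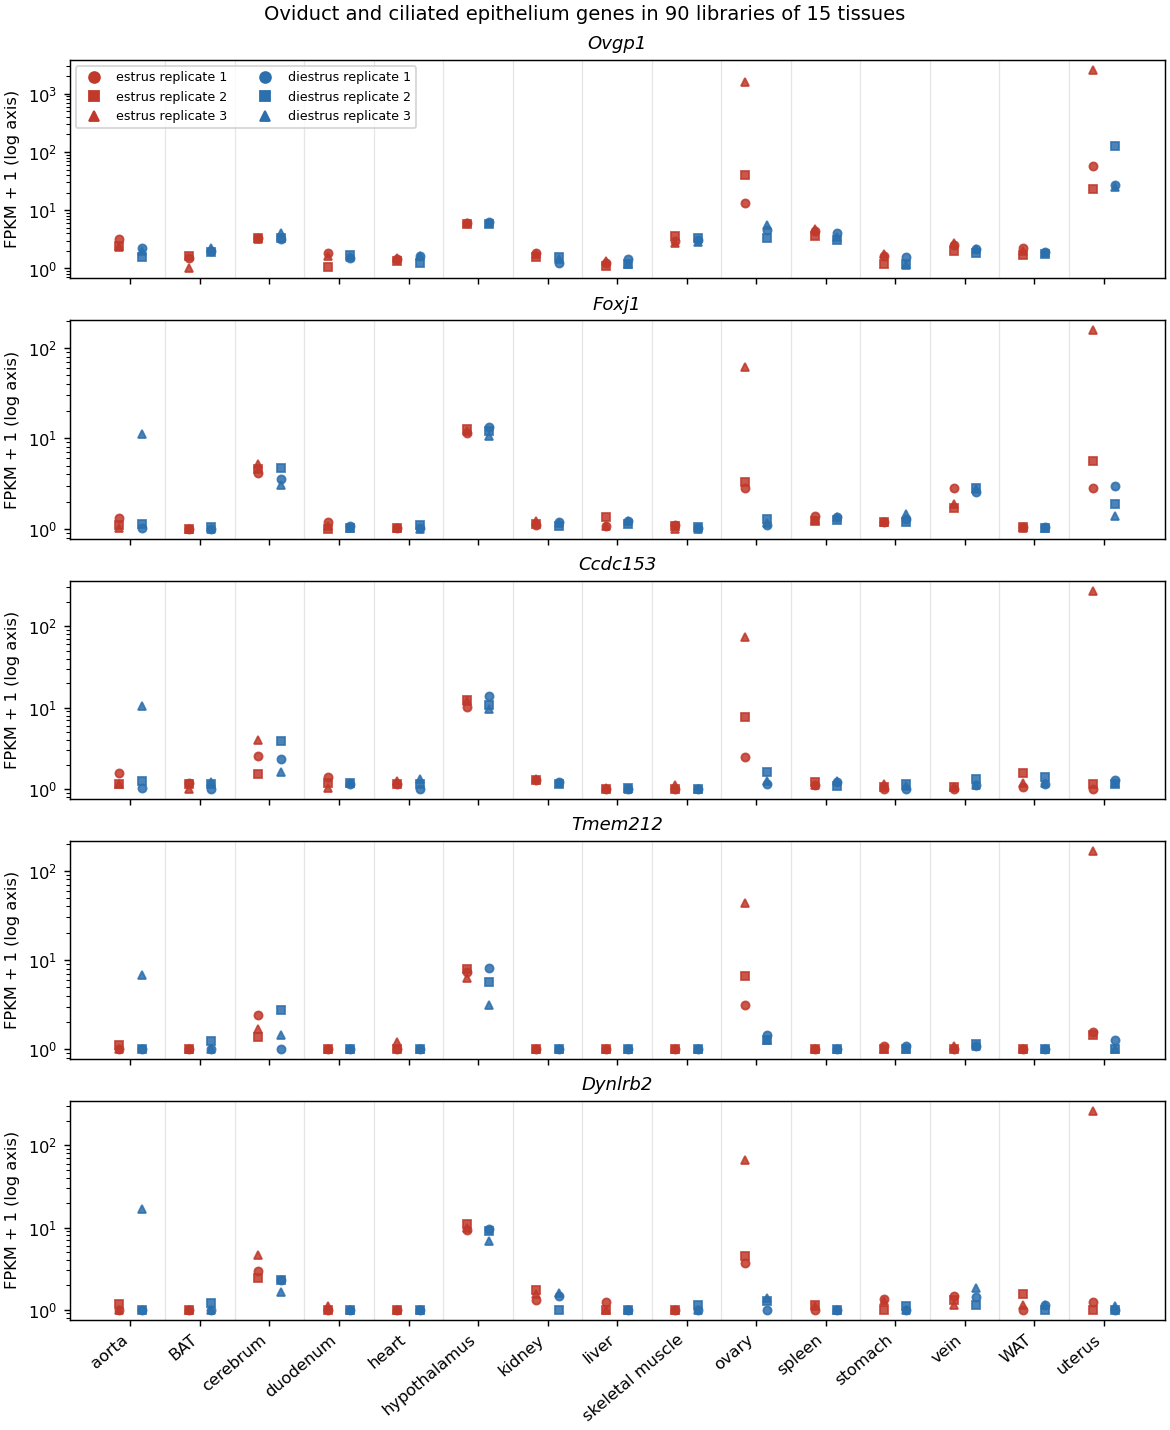
FPKM + 1 on a log axis of each of the 5 genes in the 90 libraries, by tissue, with a symbol per replicate and a colour per phase. Estrus replicate 3 of uterus and of ovary stood highest for all 5 genes, aorta diestrus replicate 3 stood apart from the other aorta libraries for the 4 ciliary genes, and Ovgp1 was above 20 FPKM in every uterus library.

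Likeness was measured by Pearson's r of log2(FPKM + 1) over the 90 libraries, as a description, since libraries of a tissue are alike and 2 of them hold the highest values. The genes most like Ccdc153 were Dnali1 (r = 0.98), Dynlrb2 (0.98), Fam166c (0.98), Tmem212 (0.98) and Cfap44 (0.97). Those most like Tmem212 were Fam166c (0.98), Ccdc153 (0.98), Dnali1 (0.97), Dynlrb2 (0.97) and Cfap44 (0.96), and those most like Dynlrb2 were Ccdc153 (0.98), Dnali1 (0.97), Tmem212 (0.97), Fam166c (0.96) and Cfap65 (0.96). For Foxj1 they were Dnaic2 (0.94), Gm973 (0.94), 1110017D15Rik (0.94), Dynlrb2 (0.94) and Cfap44 (0.93). For Ovgp1 they were Lrrc74b (0.88), Cfap43 (0.85), Lrrc71 (0.82), Capsl (0.82) and Enkur (0.82). Most of these names did not remain by Spearman's rho, so the rankings depend on the measure.

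Without estrus replicate 3 of ovary, uterus and BAT, r of Ccdc153 with Dynlrb2 was 0.95, against 0.98 over all 90 libraries. That of Ovgp1 with Foxj1 was 0.46 against 0.71, and that of Ovgp1 with Dynlrb2 was 0.29 against 0.66. The genes most like Ovgp1 then were Rev3l, Vangl2, Zfp560, Bcat1 and Tada2a, and none of them is on the cilia list. The correlations among the 4 ciliary genes lay between 0.87 and 0.95 without those libraries.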

How the data were processed

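RNA of 15 tissues from mice in estrus or diestrus was sequenced, with 3 libraries per tissue and phase. Reads were cleaned by SOAPnuke and mapped to GRCm38.p5 by Bowtie2 2.2.5, and the authors deposited FPKM from RSEM 1.2.8 for 20414 genes, without counts. RefSeq (GRCm38.p6) named 20265 of them. The members and the lists were chosen with earlier results of these data known. Of each list, named genes are the most abundant ones, and those called with the largest differences. Genes that averaged 1 FPKM or more in the libraries of a fit were tested as log2(FPKM + 1) by limma 3.58.1 (R 4.3.3) with an intensity trend and Benjamini-Hochberg adjustment over all tested genes. FPKM was not a count, so no count test was run, and the log scale understates the change of low genes. The procedure was tested on simulated data drawn from hypothalamus and from ovary without estrus replicate 3. That test thus did not cover fits where 1 library stands far above the others. Depth was approximated from 1478 single-transcript genes of 300 to 1100 bases, assuming reads of 50 bases. Alternatives covered the pseudocount, the filter, the scale, a replicate block, one fit of all libraries and libraries left out. Tables and plots used Python 3.11.15 with pandas 2.3.3, numpy 2.4.6 and matplotlib 3.10.9.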

Additional observations from a re-analysis of the deposited data

Results flagged for a closer look

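Ovgp1 differed in opposite directions between the phases in ovary and aorta and in BAT, with no overlap of the libraries within each of these tissues. On the log2(FPKM + 1) scale, estrus was above diestrus by 4.42 in ovary and by 0.45 in aorta, and the difference in BAT was -0.60. In BAT, Ovgp1 measured 0.49, 0.65 and 0 FPKM in estrus and 1.01, 0.91 and 1.25 FPKM in diestrus, where the value of 0 comes from the very shallow estrus replicate 3. Ccdc153 differed likewise, by 3.09 in ovary and 0.13 in kidney, with -0.18 in vein. All its libraries were at 0.14 to 0.32 FPKM in kidney and at or under 0.31 FPKM in vein. By limma, Ovgp1 in aorta was not called (adjusted p = 0.933). Ovgp1 in BAT and Ccdc153 in kidney and vein were below the filter on low values, and the ovary values entered the choice of the genes. Every estrus library lay above every diestrus library for 7.68% of all genes above 0 in ovary. This share was not computed for aorta, BAT, kidney or vein. The difference between the tissues was not tested in either gene.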

How the results depend on the processing

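Of 332 alternatives for 28 differences of the 5 genes, 310 kept their direction and their side of the threshold, 14 reversed and 8 passed the threshold where the reported fit did not. The differences include values that entered the choice of the genes, as in uterus, so these counts are a description and not a test. All 14 reversals came from leaving out 1 replicate, where the difference of estrus over diestrus of Ovgp1 in uterus ranged from -0.26 to 3.13, those in hypothalamus from -0.064 to 0.0095 for Ovgp1, -0.063 to 0.11 for Foxj1 and -0.088 to 0.18 for Ccdc153, and those in cerebrum from -0.14 to 0.036 for Ovgp1 and -0.31 to 0.38 for Ccdc153. One fit of all 90 libraries called 52 listed cilia genes between the phases in uterus and 1 in ovary, while the reported fits called 0. That fit called 6.65% of all genes tested in uterus and 0.339% in ovary. With estrus replicate 3 of the tissue left out, a setting chosen after seeing the data, it called 1 and 0 listed genes, against 2.99% and 0.294% of all genes. Leaving out 1 library, 4 to 9 listed cilia genes were called higher in ovary than in uterus (9 without uterus estrus replicate 3), and 7 without estrus replicate 3 of both, a setting chosen after seeing the data, against 4 reported. The reported fit called 10.4% of all genes tested higher in ovary, and the shares for these other settings are not given here. Of the 25 genes named by likeness, 1 remained by Spearman's rho, 13 without the filter and 19 without estrus replicate 3 of ovary, uterus and BAT, and the cause was not tested. The tissues came from the same mice of a phase, but no source used here says that a replicate number marks 1 mouse, so estrus replicate 3 of ovary and of uterus may or may not be 1 mouse. Correlations of same-numbered deviations were 0.0095 to 0.078 in estrus and 0.15 to 0.24 in diestrus between hypothalamus and cerebrum, and 0.076 to 0.32 and 0.072 to 0.14 between ovary and uterus, so not every pair was over 0.1 and the pairing was not settled. With the replicate number as a block, 30 of 68 listed cilia genes tested were called higher in hypothalamus than in cerebrum, against 630 of all 13280 genes. Between ovary and uterus, 4 of 93 were called higher in ovary and 5 in uterus, against 1472 and 1224 of all 14035 genes. With that block, 0 listed genes were called between the phases in ovary, uterus, hypothalamus or cerebrum. Depth limits the lowest values, and the worth of 1 read was computed for Dynlrb2 only.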
